A study of Mus musculus with 20 samples.

Results

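The genes described here make nucleotides: 32 were listed, 13 for purines, 10 for pyrimidines and 9 for deoxynucleotides, listed by their roles in these pathways. They were chosen with earlier results of these data known, so their shares beside those of all genes are a description. Of the 32, 30 had a probe set that carries a single gene symbol, among 17097 genes so named on the array. Impdh2 had no such probe set and Atic lay only on one with several symbols, so neither was analysed here. All 30 passed the filter on low values. The cells were mouse embryonic fibroblasts, SV40-immortalized and of the genotype Ampkα1/α2 double knockout, so that every group, the control included, lacked the catalytic subunits of AMPK, a kinase that senses cellular energy. The cells received 1 mM AICAR for 1, 2, 4, 12 or 24 h (3 arrays each) or 8 h (2 arrays), and the control was taken at 0 h without AICAR (3 arrays). Each AICAR group was compared with these same 3 control arrays, and no control was kept in culture without AICAR for a matching time. Whether replicates are separate cultures is not said in the labels, and the p-values therefore reflect the spread among these 20 arrays, which may be technical.

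AICAR is taken up by cells and phosphorylated to ZMP, which is itself an intermediate of purine synthesis: Adsl makes it and Atic uses it. Purine rings are built stepwise on phosphoribosyl pyrophosphate (PRPP) by Ppat, Gart, Pfas, Paics, Adsl and Atic, and pyrimidine rings are built by Cad, Dhodh and Umps before CTP synthase makes the cytidine form. Ribonucleotide reductase turns ribonucleotides into deoxynucleotides, and in dividing fibroblasts its small subunit, thymidine kinase 1 and dCMP deaminase are known to follow DNA replication. Salvage kinases such as Uck1, Uck2, Dck and Tk2 reuse free nucleosides instead.

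Several contrasts at 24 h were between genes that neighbour each other or encode related proteins, so a RefSeq promoter window of each of these is shown (build GRCm38.p6, 250 bases before to 50 after the annotated start, 5′ to 3′ on the gene's strand). Ppat (chr5:76951529-76951828, minus strand) and Paics (chr5:76951052-76951351, plus strand) lie on opposite strands with annotated starts 276 bases apart, each start inside the other gene's transcribed span. The CTP synthase paralogs are Ctps (chr4:120570227-120570526, minus strand) and Ctps2 (chrX:162901921-162902220, plus strand), and the reductase subunits are Rrm2 (chr12:24708004-24708303, plus strand) and Rrm1 (chr7:102441445-102441744, plus strand). Capitals mark E-boxes, CCAAT boxes and GC boxes on either strand.
Ppat: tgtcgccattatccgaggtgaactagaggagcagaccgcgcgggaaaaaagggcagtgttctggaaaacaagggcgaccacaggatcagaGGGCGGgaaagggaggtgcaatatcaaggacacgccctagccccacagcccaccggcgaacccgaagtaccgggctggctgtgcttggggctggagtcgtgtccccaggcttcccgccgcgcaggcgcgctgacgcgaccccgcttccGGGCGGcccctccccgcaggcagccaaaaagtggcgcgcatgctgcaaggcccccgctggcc
Paics: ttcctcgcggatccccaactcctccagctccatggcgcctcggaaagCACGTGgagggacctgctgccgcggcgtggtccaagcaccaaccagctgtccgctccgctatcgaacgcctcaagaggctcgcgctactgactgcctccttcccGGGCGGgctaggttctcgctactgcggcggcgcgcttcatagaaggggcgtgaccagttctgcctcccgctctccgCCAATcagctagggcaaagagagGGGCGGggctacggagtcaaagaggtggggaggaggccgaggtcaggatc
Ctps: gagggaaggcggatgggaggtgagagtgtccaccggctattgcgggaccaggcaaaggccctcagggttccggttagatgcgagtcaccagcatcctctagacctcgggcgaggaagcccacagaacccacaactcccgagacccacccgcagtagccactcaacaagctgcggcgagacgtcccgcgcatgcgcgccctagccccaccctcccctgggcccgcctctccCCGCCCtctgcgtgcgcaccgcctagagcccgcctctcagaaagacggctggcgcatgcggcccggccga
Ctps2: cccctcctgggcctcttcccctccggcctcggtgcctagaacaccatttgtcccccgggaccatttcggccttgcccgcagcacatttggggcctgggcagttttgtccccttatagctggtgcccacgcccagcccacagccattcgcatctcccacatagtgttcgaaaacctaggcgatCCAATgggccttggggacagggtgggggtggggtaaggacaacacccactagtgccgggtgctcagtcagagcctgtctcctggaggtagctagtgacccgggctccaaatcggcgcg
Rrm2: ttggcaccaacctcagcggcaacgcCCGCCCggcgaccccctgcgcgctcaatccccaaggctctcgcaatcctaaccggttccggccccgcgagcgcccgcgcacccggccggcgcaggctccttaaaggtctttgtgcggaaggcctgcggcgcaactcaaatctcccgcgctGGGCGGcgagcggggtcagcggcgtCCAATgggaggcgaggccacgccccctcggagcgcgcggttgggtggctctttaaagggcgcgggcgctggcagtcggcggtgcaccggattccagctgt
Rrm1: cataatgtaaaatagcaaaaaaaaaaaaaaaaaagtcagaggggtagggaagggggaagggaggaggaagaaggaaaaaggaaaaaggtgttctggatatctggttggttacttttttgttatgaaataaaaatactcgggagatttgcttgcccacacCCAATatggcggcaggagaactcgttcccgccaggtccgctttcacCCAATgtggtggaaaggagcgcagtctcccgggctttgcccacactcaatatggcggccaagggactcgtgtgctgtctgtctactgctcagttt

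The Paics window held an E-box (CACGTG) at -203 and a CCAAT box at -23, counted in bases from the annotated start, and the Ppat window held neither. Both held GC boxes (GGGCGG), as did the windows shown for Ctps and Rrm2. The windows shown for Ctps2 and Rrm1 held CCAAT boxes and no GC box. RefSeq gives other starts too: a further Ctps window (chr4:120569410-120569709) and 2 further Ctps2 windows (chrX:162901310-162901609 and chrX:162901345-162901644) held neither box. Windows were found for 30 of the 32 listed genes, and Pfas and Dhodh were not among them. These 30 include Atic and Impdh2, which were not analysed on the arrays, so they are not the 30 genes of the results below. An E-box lay in a window of 5 of them (16.7%), against 8.09% of all 27025 genes with a window. Those 5 were Atic, Impdh2, Paics, Nme1 and Tyms. A CCAAT box lay in 11 (36.7%), against 41.1%. A GC box lay in 24 (80.0%), against 38.2%. The 27025 genes were not limited to those tested on the arrays, and no share over the tested genes was computed. The E2F letters TTTCGCGC or TTTGGCGC were in 0 of the 30, against 0.929%, and the ATF4 element TGATGNAA in 1, against 4.51%. All motifs were searched on both strands, and 0 of the matches in the 6 windows shown overlapped another motif. A match is a description of these letters and not evidence of a bound factor.

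After 24 h in AICAR, 17 of the 30 genes had fallen and 3 had risen relative to the 0 h control. Among all 12944 genes tested, 14.6% fell and 25.8% rose in that comparison (limma moderated test over all genes, Benjamini-Hochberg adjusted p under 0.05, as for every call of a gene here). Further probe sets of a gene were tested in a separate fit over probe sets, with its own adjustment. The median log2 change of the 30 was -0.28, against 0.01 over all genes. The falls lay between -0.95 (Rrm2) and -0.24 (Gmps) on the log2 scale. The 3 rises were Uck1, Ctps2 and Dck. Since the measurement is of bulk RNA, fewer cells of a type and less RNA per cell cannot be told apart.

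**Figure D1:**
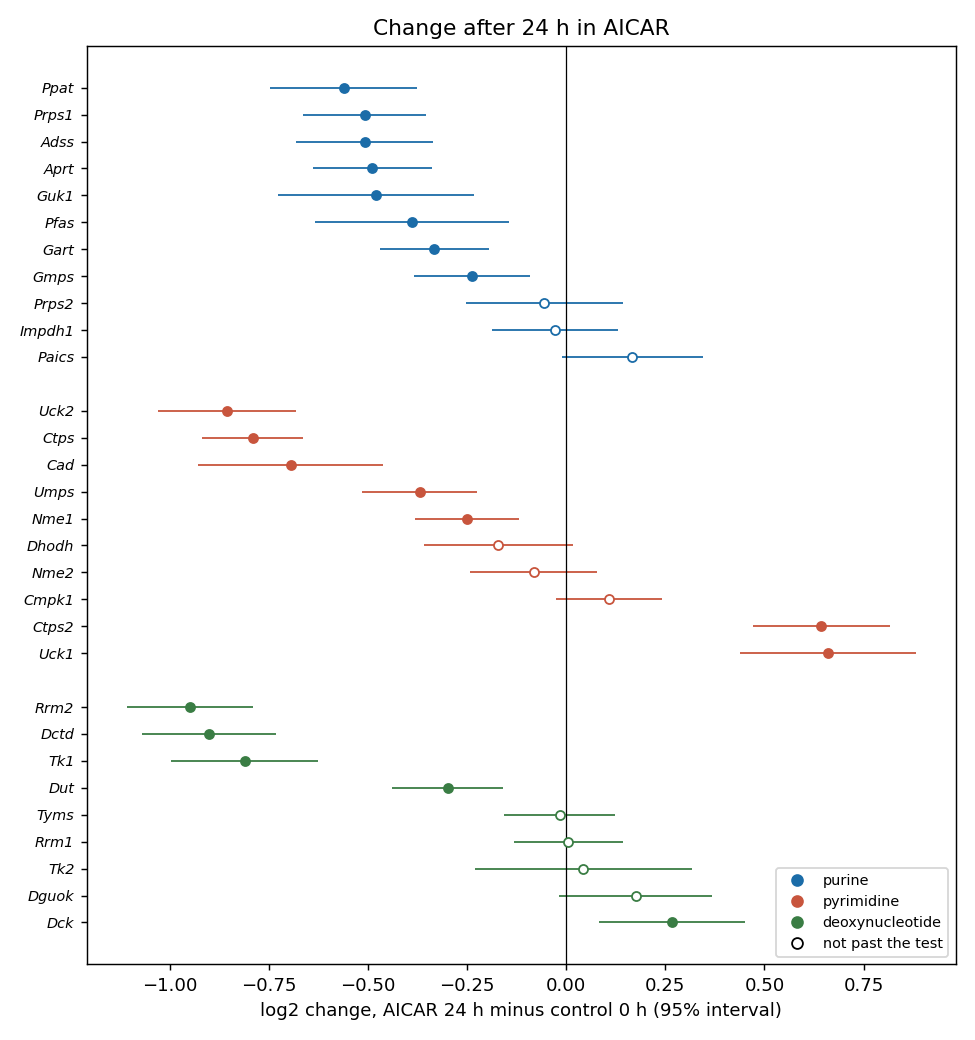
Log2 change of each gene between AICAR 24 h and control 0 h (x axis) with its 95% interval, by class (purine above, then pyrimidine, then deoxynucleotide). Filled points passed the test; 17 lie left of 0 and 3 right of it, and the purine genes have no filled point right of 0.

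Of the 11 purine genes, 8 fell and 0 rose at 24 h, where 14.6% of all genes fell and 25.8% rose. Their median log2 change was -0.39. Ppat, which commits PRPP to purine synthesis, had log2 signals of 8.79, 8.99 and 8.52 in the AICAR 24 h arrays, against 9.33, 9.39 and 9.26 in the controls. Every 24 h array was thus below every control array, and the log2 change was -0.56 ± 0.09 (SE, limma adjusted p = 4.86e-05). Adss, which turns IMP towards AMP, read 10.60, 10.69 and 10.66 at 24 h, against 11.19, 11.14 and 11.14 in the controls, a change of -0.51 ± 0.08 (SE, limma adjusted p = 6.35e-05). Aprt, which salvages adenine, read 11.24, 11.18 and 11.24 at 24 h, against 11.71, 11.78 and 11.65 in the controls (-0.49 ± 0.07 SE, limma adjusted p = 2.27e-05). The groups did not overlap for either gene. Gart, whose protein carries 3 of the early ring-building activities in vertebrates, changed by -0.33, the glutamine-using enzyme Pfas by -0.39, the GMP synthase Gmps by -0.24 and the GMP kinase Guk1 by -0.48. A dimmer Gmps probe set, with a mean of 6.57, gave -2.26 ± 0.53 (SE, limma adjusted p = 0.0026), so the size of that fall depended on the probe set. The Pfas call was lost with median centring (limma adjusted p = 0.051) and on leaving out Control 0h replicate 1 (0.0561) or AICAR 24h replicate 3 (0.0555).

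Paics, the bifunctional enzyme that acts after Pfas, stood apart from its neighbour Ppat. It read 12.02, 12.16 and 12.11 at 24 h, against 11.99, 11.92 and 11.88 in the controls. Its log2 change of 0.17 did not pass the test (95% interval -0.01 to 0.35, limma adjusted p = 0.134), and its other 2 tested probe sets gave 0.13 and 0.18. With quantile normalization the change was 0.22 and with array weights 0.19, and both passed. Impdh1, an IMP dehydrogenase of the guanine branch, gave -0.03 (95% interval -0.19 to 0.13): 7.62, 7.64 and 7.59 at 24 h, against 7.66, 7.63 and 7.64 in the controls.

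The PRPP synthetase paralogs gave different results. Prps1 read 9.78, 9.78 and 9.80 at 24 h, against 10.35, 10.33 and 10.19 in the controls, and fell by 0.51 (± 0.07 SE, limma adjusted p = 2.07e-05). Prps2 read 9.12, 8.92 and 8.79 at 24 h, against 9.13, 9.00 and 8.87, so the groups overlapped (-0.06, 95% interval -0.25 to 0.14). The probe sets of both genes disagreed. A second Prps1 probe set gave -0.11 and was not called (limma adjusted p = 0.613), whereas a second Prps2 probe set gave -0.41 and was called (limma adjusted p = 0.00112). Here, as for the other paralogs, each gene was tested against its own controls and the difference between paralogs was not tested.

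Of the 10 pyrimidine genes, 5 fell and 2 rose at 24 h, where 14.6% of all genes fell and 25.8% rose. Their median log2 change was -0.21. Cad, the protein that starts the pathway, read 9.56, 9.32 and 9.19 at 24 h, against 9.91, 10.25 and 10.00 in the controls (-0.70 ± 0.11 SE, limma adjusted p = 5.18e-05). Umps, which completes UMP, read 9.49, 9.51 and 9.36 at 24 h, against 9.93, 9.82 and 9.73 in the controls (-0.37 ± 0.07 SE, limma adjusted p = 0.000244). Both genes were below every control array in all 24 h arrays. Dhodh, the mitochondrial enzyme between them, changed by -0.17 (95% interval -0.36 to 0.02) and did not pass. It passed with quantile normalization (-0.22) and without Control 0h replicate 3 (-0.26).

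The CTP synthases moved in opposite directions. Ctps read 10.13, 10.10 and 10.11 at 24 h, against 10.97, 10.91 and 10.83 in the controls, a log2 change of -0.79 ± 0.06 (SE, limma adjusted p = 1.53e-08), or 1.73-fold lower. Ctps2 read 8.86, 8.87 and 8.74 at 24 h, against 8.24, 8.18 and 8.13 in the controls, a log2 change of 0.64 ± 0.08 (SE, limma adjusted p = 5.03e-06), or 1.56-fold higher. A dimmer Ctps2 probe set, with a mean of 5.34, gave 0.01 and was not called. The uridine-cytidine kinases of salvage split in the same manner. Uck2 read 9.52, 9.36 and 9.30 at 24 h, against 10.19, 10.34 and 10.21 in the controls (-0.86 ± 0.08 SE, limma adjusted p = 2.25e-07), and its other 3 tested probe sets also fell, by 0.38, 0.66 and 0.87. Uck1 read 8.31, 8.45 and 8.32 at 24 h, against 7.73, 7.89 and 7.48 in the controls (0.66 ± 0.11 SE, limma adjusted p = 5.49e-05).

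Among the enzymes that phosphorylate nucleotides further, Nme1, a nucleoside diphosphate kinase, read 11.97, 11.96 and 11.92 at 24 h, against 12.19, 12.24 and 12.17 in the controls. Its change of -0.25 passed (± 0.06 SE, limma adjusted p = 0.00315), although a second probe set gave -0.16 and did not. Nme2 read 12.86, 12.86 and 12.89 at 24 h, against 12.96, 12.96 and 12.94, a change of -0.08 (95% interval -0.24 to 0.08) that did not pass. The UMP/CMP kinase Cmpk1 gave 0.11 (95% interval -0.03 to 0.24). It passed with quantile normalization, at 0.16.

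Of the 9 deoxynucleotide genes, 4 fell and 1 rose at 24 h, where 14.6% of all genes fell and 25.8% rose. Their median log2 change was -0.02. Rrm2, the small subunit of ribonucleotide reductase that is made for DNA replication, had the largest fall of the 30 genes. It read 10.52, 10.51 and 10.47 at 24 h, against 11.42, 11.47 and 11.47 in the controls (-0.95 ± 0.08 SE, limma adjusted p = 2.56e-08), or 1.93-fold lower, and a second probe set gave -1.07. The large subunit gene Rrm1 read 10.99, 11.00 and 10.87 at 24 h, against 10.93, 10.97 and 10.95, and its change of 0.01 did not pass (95% interval -0.13 to 0.14). Rrm2b, the small subunit used outside replication and not one of the 30, read 8.29, 8.17 and 7.94 at 24 h, against 7.83, 7.83 and 7.61 in the controls (0.38 ± 0.12 SE, limma adjusted p = 0.0204).

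Dctd, which deaminates dCMP to the dUMP used for thymidylate, read 7.46, 7.58 and 7.23 at 24 h, against 8.38, 8.35 and 8.24 in the controls (-0.90 ± 0.08 SE, limma adjusted p = 8.28e-08). Dut, which makes dUMP from dUTP, read 10.43, 10.46 and 10.47 at 24 h, against 10.71, 10.82 and 10.73 (-0.30 ± 0.07 SE, limma adjusted p = 0.00136). Neither overlapped its controls. For Tyms, which turns dUMP into dTMP, the answer depended on the probe set. The brightest gave -0.02 (95% interval -0.16 to 0.12), and a dimmer one, with a mean of 6.36, gave -0.85 (limma adjusted p = 0.00045).

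The deoxynucleoside kinases did not move together. Cytosolic Tk1 read 9.30, 9.23 and 9.07 at 24 h, against 10.09, 10.00 and 9.95 in the controls (-0.81 ± 0.09 SE, limma adjusted p = 8.36e-07). Mitochondrial Tk2 read 6.84, 6.95 and 6.34 at 24 h, against 6.68, 6.82 and 6.50, so the control arrays lay within the 24 h range (0.04, 95% interval -0.23 to 0.32). Dck, the cytosolic deoxycytidine kinase, read 10.60, 11.01 and 10.89 at 24 h, against 10.54, 10.58 and 10.58 (0.27 ± 0.09 SE, limma adjusted p = 0.0204). That rise rested on single arrays, since the call was lost when AICAR 24h replicate 2 (0.18) or 3 (0.24) or Control 0h replicate 1 (0.25) was left out. Mitochondrial Dguok read 8.46, 8.37 and 8.13 at 24 h, against 8.30, 8.12 and 8.01, and its change of 0.17 did not pass (95% interval -0.02 to 0.37). It passed without AICAR 24h replicate 3, at 0.27.

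**Figure D2:**
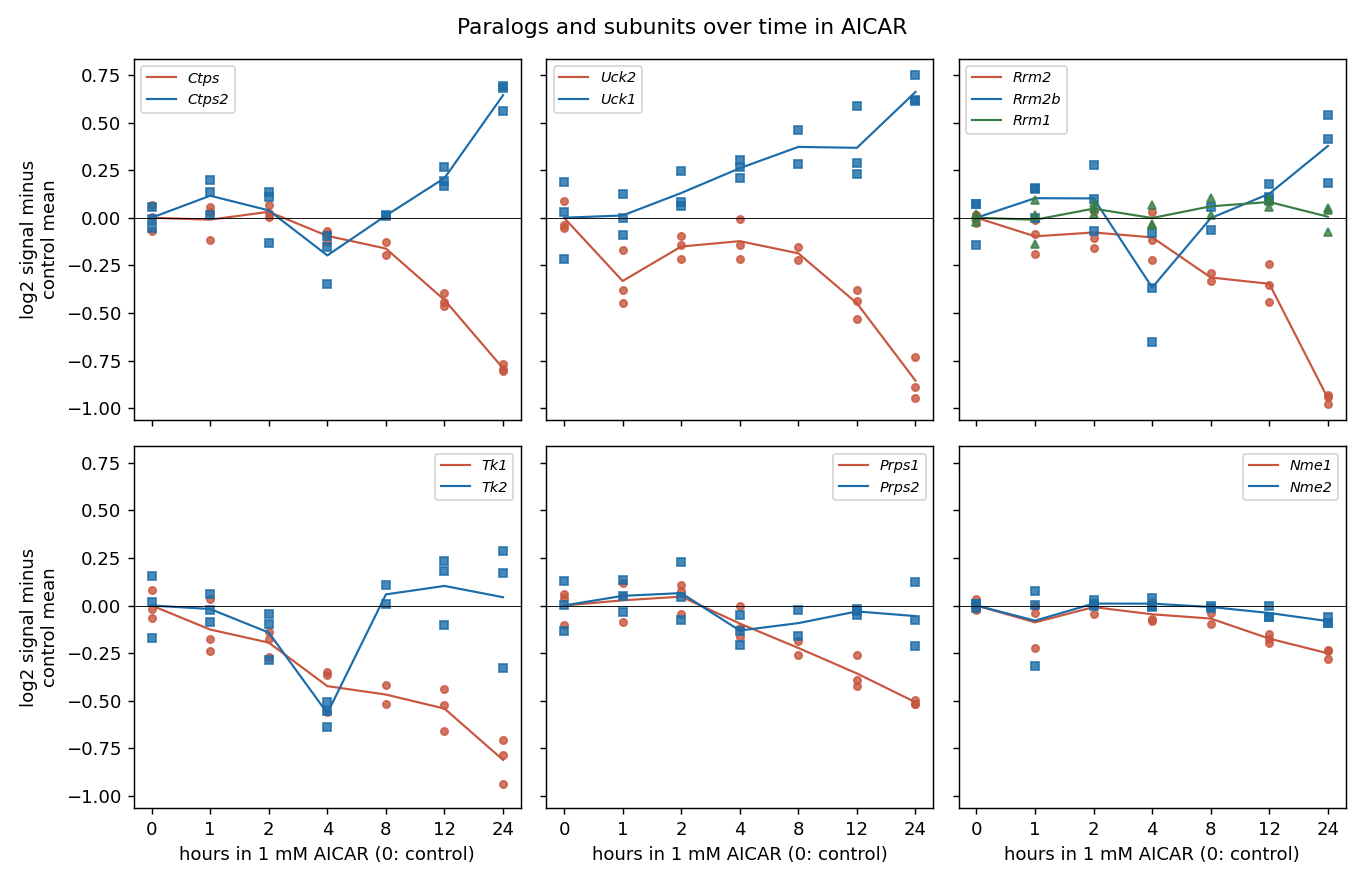
Log2 signal minus the mean of the 3 control arrays (y axis) against hours in AICAR (x axis, 0 is the control) for 6 sets of paralogs or subunits; points are single arrays and lines join group means. Ctps2, Uck1 and Rrm2b end above 0 at 24 h, where Ctps, Uck2 and Rrm2 end between -0.79 and -0.95; Tk2 dips at 4 h and returns.

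The time courses showed when these differences arose. After 1 h 0 of the 30 genes passed the test, with 1 at an unadjusted p under 0.05, and after 2 h again 0 passed, with 2 at such a p. Among all genes, 0.00773% rose and 0.471% fell at 1 h, and 0.471% rose and 0.997% fell at 2 h. At 1 h the gene with the lowest unadjusted p was Uck2, at -0.33 (limma adjusted p = 0.11), and it passed in the fit without AICAR 1h replicate 1 or with array weights. At 4 h 4 genes fell and 0 rose, where 6.9% of all genes fell and 5.18% rose. With array weights the 4 h count was 23, with a warning that the weights had not converged. In that fit 3322 of all 12944 genes rose and 4154 fell at 4 h.

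The 4 genes that fell at 4 h were Dctd (-0.57), Tk2 (-0.57), Tk1 (-0.42) and Guk1 (-0.39). Dctd read 7.71, 7.77 and 7.79 at 4 h, against 8.38, 8.35 and 8.24 in the controls (± 0.08 SE, limma adjusted p = 0.000156). It then read 8.15 and 8.05 at 8 h and 8.08, 8.28 and 8.27 at 12 h, where it did not pass, before its lower values at 24 h. Tk2 read 6.11, 6.03 and 6.16 at 4 h, below all other arrays of the series, and 6.78 and 6.68 at 8 h (4 h change ± 0.13 SE, limma adjusted p = 0.00766). Guk1 read 8.82, 8.45 and 8.59 at 4 h, against 9.11, 9.11 and 8.81 in the controls, and the groups overlapped. Its 4 h call was lost with median centring (-0.43), and when Control 0h replicate 1 (-0.34) or 2 (-0.34) or AICAR 4h replicate 2 (-0.30) or 3 (-0.37) was left out.

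Tk1 passed at each time from 4 h on, with log2 changes of -0.42, -0.47, -0.54 and -0.81 in order of time. At 8 h 2 genes fell and 0 rose, Tk1 and Rrm2 (-0.31), where 2.84% of all genes fell and 7.49% rose. That group has 2 arrays, and the 8 h count fell to 0 when AICAR 8h replicate 1 was left out, and to 1 on leaving out AICAR 8h replicate 2 or Control 0h replicate 3. The Rrm2 call was also lost without Control 0h replicate 2 (-0.31). With quantile normalization 7 genes passed at 8 h, 3 of them higher, where 1410 of all 12944 genes rose and 670 fell.

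At 12 h 6 genes fell and 4 rose, where 8.88% of all genes fell and 14.8% rose. The falls were Tk1 (-0.54), Uck2 (-0.45), Ctps (-0.43), Prps1 (-0.36), Rrm2 (-0.35) and Aprt (-0.21). The rises were Gart (0.38), Uck1 (0.37), Dck (0.33) and Dguok (0.33). Aprt was close to the threshold (limma adjusted p = 0.0433) and was lost with median centring (-0.20), without any 1 of the controls (-0.18 to -0.24) and without several AICAR arrays. Leaving out Control 0h replicate 3 ended the calls of Uck1 (0.26) and Dguok (0.26), as did leaving out AICAR 12h replicate 1 for Uck1 (0.26) and AICAR 12h replicate 2 for Dguok (0.31). Prps1 was not called at 12 h when its probe sets were averaged (-0.24).

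Gart was the only 1 of the 30 called in opposite directions at different times against the control. It read 10.07, 9.91 and 10.05 at 12 h and 9.38, 9.31 and 9.19 at 24 h, around control values of 9.67, 9.62 and 9.60. All 12 h arrays were above and all 24 h arrays below the controls. The 12 h change was 0.38 ± 0.07 (SE, limma adjusted p = 0.00034), and it was 0.09 and did not pass when all probe sets of the gene were averaged. Its other probe sets gave -0.82, -0.66 and -0.27 at 24 h, the last without passing (limma adjusted p = 0.0554).

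**Figure D3:**
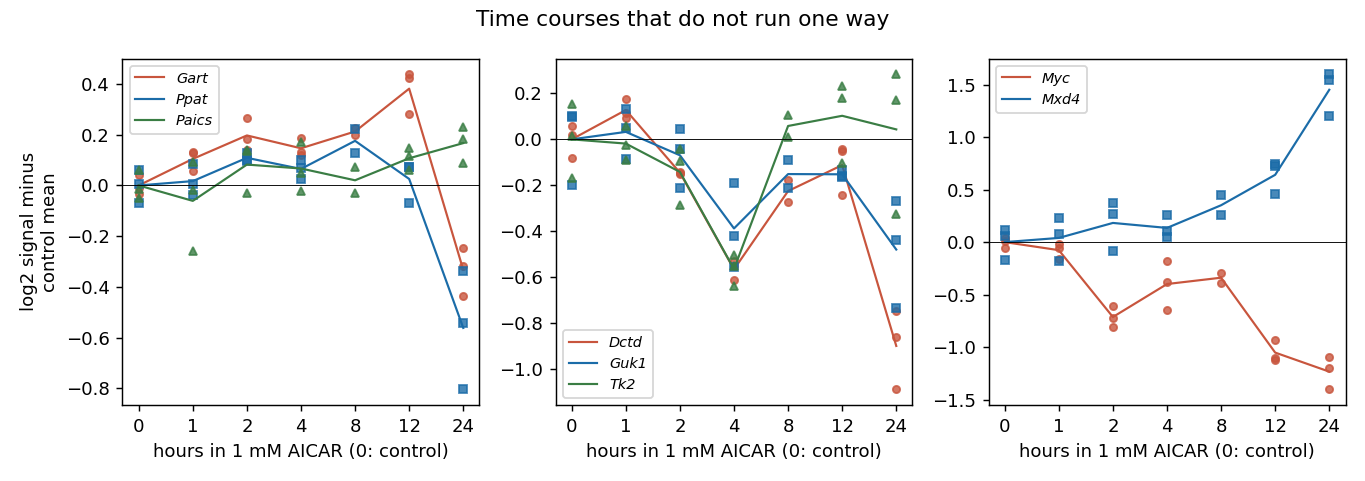
Log2 signal minus the control mean (y axis, a separate scale in each panel) against hours in AICAR (x axis, 0 is the control); points are single arrays and lines join group means. Gart is above 0 at 12 h and below it at 24 h, Dctd, Guk1 and Tk2 dip at 4 h, and Myc is low at 2 h and again at 12 and 24 h.

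The step between 12 and 24 h was tested without the control arrays. At 24 h relative to 12 h, 13 genes fell and 1 rose, where 7.3% of all genes fell and 12.6% rose. All 13 were among the 17 that were lower than the control at 24 h: 5 purine, 4 pyrimidine and 4 deoxynucleotide genes. Both comparisons use the same AICAR 24 h arrays, so this overlap is partly built in. The largest were Dctd (-0.79), Gart (-0.71), Rrm2 (-0.60), Ppat (-0.59) and Cad (-0.53), and the rise was Ctps2 (0.44). Ppat read 9.40, 9.40 and 9.26 at 12 h and Cad 9.82, 10.05 and 9.80, and both groups overlapped the controls. The calls for Adss, Dut, Gmps and Tk1 in this step, between -0.29 and -0.20, were lost when single arrays of the 12 or 24 h groups were left out. The Umps call (-0.38) was lost when its probe sets were averaged (-0.16, limma adjusted p = 0.0865). Of the 20 genes called at 24 h against the control, 3 first passed after 4 h in AICAR, 1 after 8 h, 7 after 12 h and 9 after 24 h.

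The late arrays (8, 12 and 24 h) were also compared with the early ones (1, 2 and 4 h), again without the controls. Late minus early, 14 genes fell and 5 rose, where 14.2% of all genes fell and 28.9% rose. All 14 had also fallen against the control at 24 h, an overlap partly built in, since both comparisons use the AICAR 24 h arrays. Rrm2 and Ctps gave the largest falls (-0.44 each), and Uck1 (0.33), Tk2 (0.31), Ctps2 (0.30), Dguok (0.25) and Dck (0.15) rose. For Tk2, the early arrays include its 4 h dip. The Ctps2 call was lost when its probe sets were averaged (0.08, limma adjusted p = 0.0528). The Dck call was lost when AICAR 2h replicate 1 (0.14), AICAR 4h replicate 1 (0.13), AICAR 8h replicate 2 (0.13) or AICAR 24h replicate 2 (0.12) was left out. Among the falls, Ppat, Pfas, Nme1 and Dut were not called with median centring (-0.15, -0.19, -0.08 and -0.09). Leaving out AICAR 8h replicate 2 ended the calls of Pfas (-0.17) and Nme1 (-0.11), and leaving out AICAR 8h replicate 1 that of Dut (-0.11). Over the 7 time groups, 23 of the 30 genes differed by the moderated F test, where 48.4% of all genes did. The other 7 were Paics, Impdh1, Prps2, Cmpk1, Nme2, Tyms and Rrm1.

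**Figure D4:**
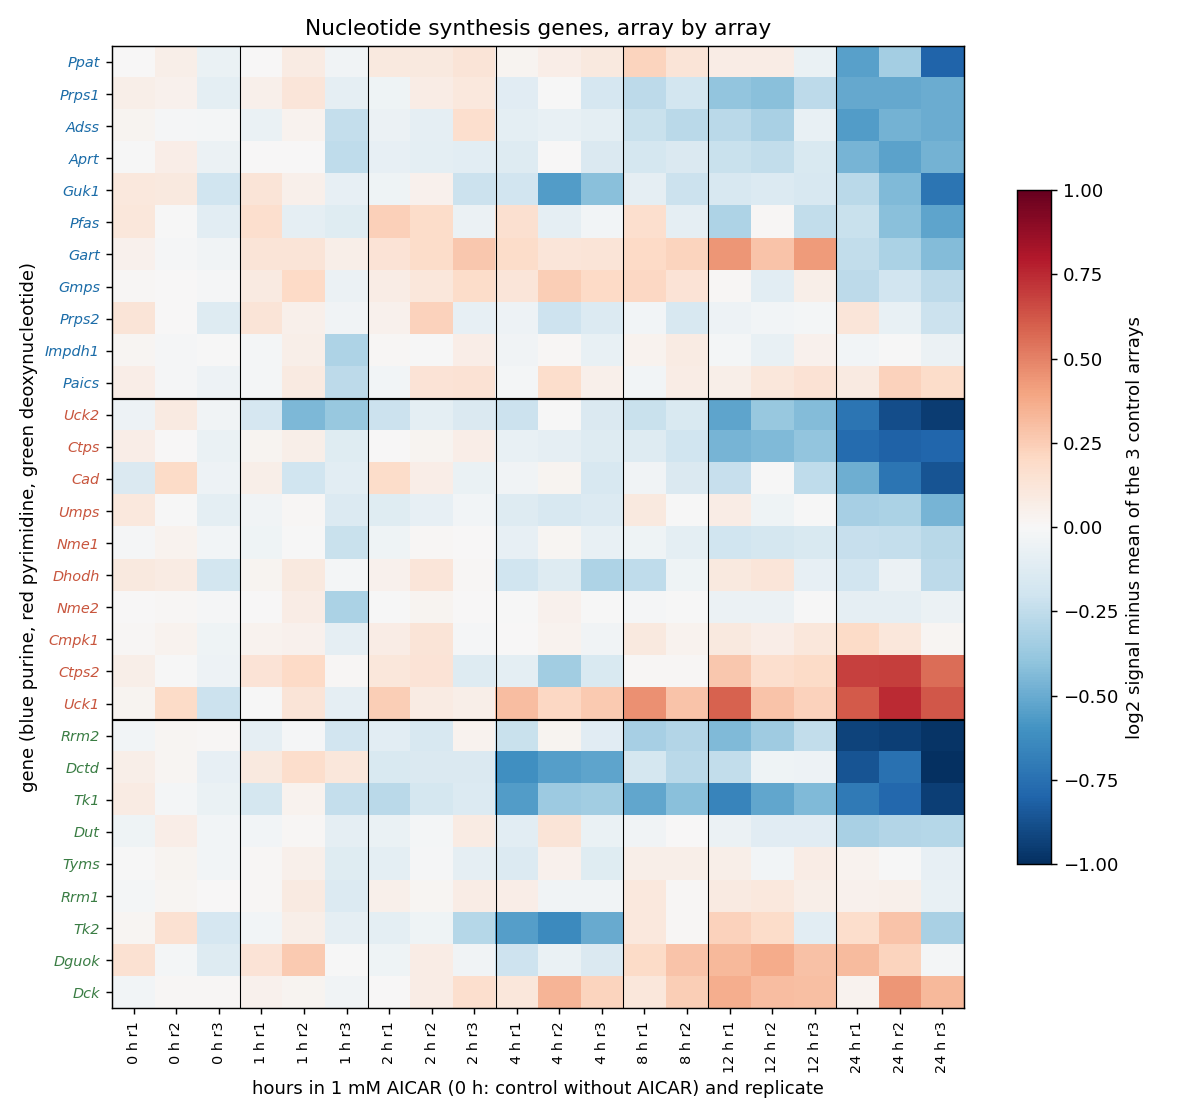
Log2 signal minus the control mean (colour) for each of the 30 genes (rows, by class and by 24 h change) in each of the 20 arrays (columns, by hours in AICAR and replicate). The 24 h columns are blue for most genes and red for Ctps2 and Uck1; Tk1 is blue from 4 h on.

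The class means per array show the same course and are given as a description. At 24 h the mean of the 11 purine genes lay -0.26, -0.28 and -0.39 from the control mean, against control arrays at 0.05, 0.02 and -0.07. The pyrimidine mean lay -0.14, -0.16 and -0.25 from it, against 0.02, 0.06 and -0.08. The deoxynucleotide mean lay -0.25, -0.20 and -0.39 from it, against 0.02, 0.03 and -0.05, and it was also low at 4 h (-0.12 to -0.25). AICAR 24h replicate 3 was the lowest of its group in all 3 classes, as was replicate 3 among the controls and at 1 h, but not at 2, 4 or 12 h. It also had the narrowest interquartile range of log2 signals in its group (2.91, where the widest was 3.24). The same held for replicate 3 of the controls (2.90, against up to 3.09) and at 1 h (2.89, against up to 3.05). It held too at 2 h (2.79, against up to 3.14) and 12 h (2.84, against up to 3.20), where replicate 3 was not lowest in all 3 classes. At 4 h replicate 2 was narrowest (2.77, against up to 3.01). The mean of 29 S-phase genes lay 0.01, 0.04 and -0.07 from its control mean at 24 h, against 0.02, 0.03 and -0.05, so these arrays overlapped.

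**Figure D5:**
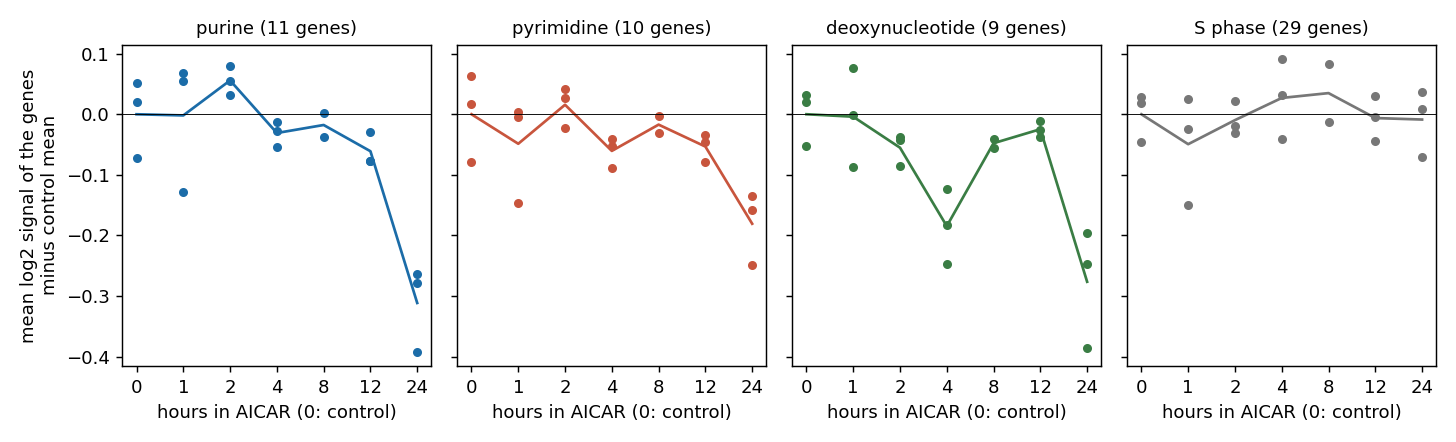
Mean log2 signal of the genes of a class minus the control mean (y axis) against hours in AICAR (x axis, 0 is the control); points are single arrays and lines join group means. The 3 nucleotide classes are lowest at 24 h, the deoxynucleotide class also dips at 4 h, and the S-phase genes stay within -0.15 to 0.09.

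Further genes of the same pathways are read against the 14.6% of all genes that fell and the 25.8% that rose at 24 h. Of 20 further purine genes, 7 fell and 5 rose, the rises being near that background. Mtap, which salvages adenine from methylthioadenosine, fell by 0.87, the AMP deaminase Ampd2 by 0.81 and Adsl, the enzyme that makes ZMP, by 0.74. Pnp, a purine salvage phosphorylase, rose by 0.27, Prpsap1, a partner of PRPP synthetase, by 0.31, and the mitochondrial kinase Ak3 by 0.36. Of 9 further pyrimidine genes, 4 rose and 2 fell, with Nme3 at 0.87, Uckl1 at 0.61, Nme6 at 0.39, Nme4 at -0.72 and Upp1 at -0.24. Of 8 further deoxynucleotide genes, 3 fell and 2 rose, again with rises near the background. Dnph1, a deoxynucleotide hydrolase, gave -1.14, the thymidylate kinase Dtymk -0.77 and the dCTP pyrophosphatase Dctpp1 -0.26, and Cmpk2 and Rrm2b gave 0.31 and 0.38.

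Of 19 regulator genes linked to these pathways, 6 fell and 4 rose at 24 h, so the share that rose was no higher than the 25.8% of all genes. Myc, a transcription factor known to act on many nucleotide synthesis genes, read 8.91, 9.02 and 8.71 at 24 h, against 10.16, 10.12 and 10.06 in the controls (-1.23 ± 0.10 SE, limma adjusted p = 4.08e-08). It was also lower at 2 h (9.39, 9.30 and 9.51), at -0.71 (limma adjusted p = 0.00121). At that time 0 of the 30 genes passed, where 0.997% of all genes fell and 0.471% rose. At 4, 8 and 12 h Myc gave -0.40, -0.34 and -1.05, of which the 8 h value did not pass. Whether the Myc changes bear on the 30 genes was not tested. Mxd4, of the MXD family that shares the Myc partner Max, read 9.09, 9.04 and 8.69 at 24 h, against 7.55, 7.60 and 7.32 (1.45 ± 0.14 SE, limma adjusted p = 1.51e-07). The Myc antagonist Mnt gave -0.53, Mxd3 -0.69, and the retinoblastoma-family genes Rbl1 and Rbl2 0.87 and 0.90. Of 29 S-phase genes, 6 fell and 5 rose, with a median of 0.06, where 14.6% of all genes fell and 25.8% rose, so these counts lay near the background. Cyclin E1 (Ccne1) gave -0.86, Cdc6 -0.55 and Mcm7 -0.53, and Rfc4, Cdc45 and Slbp gave 0.57, 0.50 and 0.31.

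The arrays had median log2 signals of 5.16 to 5.32, and their number limits the precision. Of 12 fibroblast markers 9 were above the level of nonspecific control probe sets (5.08) at 24 h and at 0 h, with Vim at 13.2 in both, while Col1a2, Lum and Thy1 lay below it. The fibroblast list averaged 7.71 to 7.80 in the 24 h arrays, against 7.82 to 7.87 in the controls. The list of 6 macrophage markers averaged 4.67 to 4.81, against 4.55 to 4.62, and 2 of the 6 lay above 5.08 at 24 h and 1 at 0 h. Cd68 averaged 5.85 ± 0.27, against 4.77 ± 0.10 (SD, n = 3 each), and Ptprc and Lyz2 lay below 5.08 in both. Of the epithelial markers 4 of 6 lay above it at both times, of the endothelial 1 of 4 and of the muscle 4 of 4. The 3′ minus 5′ difference of the actin control probe sets was 0.50 to 0.56 at 24 h, against 0.38 to 0.46 in the controls. The part of the marker levels or of this actin difference in the 24 h results was not tested. Prkaa1 read 7.92 to 8.36 and Prkaa2 5.42 to 6.98 over the 20 arrays, and where their probes lie relative to the deletions was not known here, so these levels are no check of the knockout.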

How the data were processed

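Total RNA was labelled with biotin and hybridised to Affymetrix MG-430 PM array strips, per the labels' protocols. The deposited table holds 45141 probe sets by 20 arrays in log2 units, as its range of 3.06 to 13.5 shows; how the authors corrected, summarised and normalized them is not given in any source used here. Samples were grouped by the labels' time and agent.

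Probe sets with a single symbol in the platform annotation (28898, against 551 with several) were named, with symbols updated through gene identifiers in the GRCm38.p6 gene table. The probe set with the highest mean stood for each of 17097 genes, and 12944 genes with at least 1 group mean over 4.81, the 40th percentile of the table, were tested. All 20 arrays entered 1 fit (limma 3.58.1, lmFit and eBayes, R 4.3.3, 13 residual degrees of freedom), with two-sided p-values adjusted by Benjamini-Hochberg across those genes. For the further probe sets of a gene, all single-symbol probe sets past the same cutoff were fitted separately. Their adjusted p-values are across those probe sets and not across the genes. The fit was tested on simulated arrays with planted changes and independent noise, which does not cover variation shared between arrays. Intervals are 95% and unadjusted. Promoter windows came from RefSeq and figures from matplotlib 3.10.9. The genes and lists were chosen with earlier results of these data known. Genes outside the 30 were named by a rule: up to 3 in each direction from each further list, by the size of the t statistic at 24 h.

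Alternatives were quantile normalization, median centring, other filters, probe-set rules and variance settings, array weights, the replicate block, the interquartile range as a covariate, a stricter threshold, a fit of only the groups compared, and leave-one-out fits.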

Additional observations from a re-analysis of the deposited data

How the results depend on the processing

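For the genes called at 24 h against the control, the counts over all 30 and over each class stayed within 1.5 times under every alternative run: 17 to 23 of the 30 under the other settings and 18 to 21 without single arrays. The same held for late minus early (15 to 23, and 16 to 20), 24 h minus 12 h (10 to 18, and 10 to 16) and the F test (19 to 26, and 20 to 23). At a threshold of 0.01, Pfas, Dck and Gmps (adjusted p = 0.0102) lost the call at 24 h; under the settings that keep 0.05, single probe sets apart, Pfas and Dck did, and 0 of the 30 changes reversed among those called. The early and 8 h counts were less steady. At 1 h, where 0 passed, 1 passed with array weights and 1 with the interquartile range as a covariate, and 0 to 1 without single arrays. Of all 12944 genes, 82 rose and 339 fell at 1 h with array weights, and 23 and 130 with that covariate. At 2 h, with 0, array weights gave 2, where 494 of all 12944 genes rose and 844 fell. At 4 h, with 4, array weights gave 23 and leaving out arrays 3 to 5. Array weights called 3322 of all 12944 genes higher and 4154 lower at 4 h. At 8 h, with 2, there were 7 with quantile normalization, 4 with the filter at the 60th percentile and 4 with a variance trend. Array weights gave 8, the interquartile range 4, a threshold of 0.01 gave 1, and leaving out single arrays 0 to 3. Of all 12944 genes, 969 rose and 367 fell at 8 h in the main fit, and 1410 and 670 with quantile normalization. The numbers were 1060 and 421 with a variance trend, 1466 and 905 with array weights, and 1589 and 824 with the interquartile range. At 0.01 they were 415 and 136, and with the filter 1116 and 436 of 9707 genes. At 12 h, with 10, a threshold of 0.01 gave 6 and leaving out arrays 7 to 12. With that threshold 1205 of all 12944 genes rose and 709 fell at 12 h. Quantile normalization changed the split at 4 h to 2 higher and 4 lower, where 1043 of all 12944 genes rose and 1100 fell. At 8 h it changed the split to 3 higher and 4 lower. The cause was not tested.

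With the replicate number as a replicate block, 5 genes passed after 4 h in AICAR, 3 after 8 h and 13 after 12 h. There were 21 after 24 h and 17 for 24 h minus 12 h, and no count moved by over 1.5 times. Of all 12944 genes, 962 rose and 1466 fell with the block at 4 h, and 1209 and 756 at 8 h. The numbers were 2444 and 1501 at 12 h, 3735 and 2215 at 24 h, and 2141 and 1254 for 24 h minus 12 h. Without the block they were 1918 and 1150 at 12 h, and 3342 and 1887 at 24 h. Residuals of arrays with the same number and different times correlated between -0.46 and 0.79 (median 0.32, 57 pairs), against a median of -0.17 for different numbers (114 pairs), and 12 of the 20 arrays correlated best with their own number. Residuals from group means cancel within a group, so the negative median is tied to the positive one and is no separate contrast. The correlations are a hint of shared variation from the data. The labels give no pairing and not every pair was above 0.1, so the fit without the block was kept. Of 17 further tested probe sets of called genes, 13 were called in the same direction. No array depth is known, all 30 genes lay above the nonspecific level of 5.08, and changes of dim probe sets are the least certain.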
